A study of Mus musculus with 23 samples.

Results

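The expression of 9 genes of the tight junction was followed in RNA from the small intestine of busulfan-treated mice, namely the claudin genes Cldn2, Cldn3, Cldn4, Cldn7, Cldn15 and Cldn23, the occludin gene Ocln, and Tjp1 and Tjp3, which encode the scaffold proteins ZO-1 and ZO-3. They were chosen as a named family from the symbols of the NCBI Gene numbers in the expression table, and all 9 of 9 were found among its 19215 entries and passed the filter of a mean of at least 1 FPKM (fragments scaled to transcript length and to the number of mapped fragments), as did 11337 entries in all. The recipients were male ICR mice, an outbred strain, and all of them had received a single dose of busulfan at 40 mg/kg when 3 weeks old, so no group here was without the drug. The Sa group was then given saline, and the other groups were given faecal microbiota transplantation (FMT) with the gut contents of donor mice that had been dosed for 3 weeks with water (Con-FMT), with alginate oligosaccharides (AOS) at 10 mg/kg (A10-FMT) or with AOS at 100 mg/kg (A100-FMT). The contents of the donors were pooled within each donor group, so each FMT group stands for 1 pool. The methods describe daily FMT for 1 week and tissue collection after 1 further week, at 5 weeks of age, without saying which libraries this covers. The sample codes divide the libraries into set 1 and set 2, whose meaning is not explained, and each treatment had 3 libraries in each set except Sa in set 1, which had 2.

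The 23 libraries summed to 556466 to 667957 FPKM each. The table gives no read numbers, but the steps between low values put the libraries at 0.812 to 1.103 times the median depth, an approximate range from 56 genes, with as few as 5 for a library. The epithelial genes Krt8, Krt19 and Epcam were high throughout, with means of 2533, 2385 and 968 FPKM.

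Tight junctions seal the space between neighbouring epithelial cells near the gut lumen. Claudins form their strands: some, such as claudin-2 and claudin-15, make pores through which small ions and water pass between the cells, while others, such as claudin-3, claudin-4 and claudin-7, are mostly described as sealing or as placed along the side of the cell. Occludin is a further membrane protein of the strands, and the ZO proteins are scaffolds below the membrane that tie the strands to the actin cytoskeleton. The study measured some of these proteins by staining and Western blotting, and the comparison of FMT groups asks here whether their transcripts differed with the donor's dose.

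On the GRCm38 build, which is the mm10 build that the labels name, Cldn4 (chr5:134945123-134946934) and Cldn3 (chr5:134986214-134987476) are neighbours, with 39280 bases between them, and Cldn15 lies on the same chromosome (chr5:136967869-136975845). Tjp1 is on chromosome 7 (chr7:65296165-65527850), Cldn23 on chromosome 8 (chr8:35824709-35826559), Tjp3 on chromosome 10 (chr10:81273188-81291581), Cldn7 on chromosome 11 (chr11:69964779-69967886), Ocln on chromosome 13 (chr13:100496504-100552718) and Cldn2 on chromosome X (chrX:139800808-139811386). The 3 promoters below, from RefSeq on GRCm38.p6, are shown because Cldn4 and Tjp1 carry the differences between FMT groups and Cldn3 is the neighbour of Cldn4. Each holds 250 bases before and 50 bases from the transcript start, written 5′ to 3′ on the strand of the gene. Capitals mark the GC box letters GGGCGG or, on the other strand, CCGCCC. Cldn4 (minus strand, chr5:134946885-134947184) has 2 matches, Tjp1 (minus strand, a start inside the gene's span, chr7:65371195-65371494) has 2 and Cldn3 (plus strand, chr5:134985964-134986263) has 1.
Cldn4 promoter: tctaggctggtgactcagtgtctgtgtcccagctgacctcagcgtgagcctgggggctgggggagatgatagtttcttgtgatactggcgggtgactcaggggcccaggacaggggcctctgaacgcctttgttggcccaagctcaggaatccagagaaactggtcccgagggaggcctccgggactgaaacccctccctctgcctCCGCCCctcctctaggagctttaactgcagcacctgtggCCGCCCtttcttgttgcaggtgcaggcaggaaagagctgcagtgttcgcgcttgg
Tjp1 promoter: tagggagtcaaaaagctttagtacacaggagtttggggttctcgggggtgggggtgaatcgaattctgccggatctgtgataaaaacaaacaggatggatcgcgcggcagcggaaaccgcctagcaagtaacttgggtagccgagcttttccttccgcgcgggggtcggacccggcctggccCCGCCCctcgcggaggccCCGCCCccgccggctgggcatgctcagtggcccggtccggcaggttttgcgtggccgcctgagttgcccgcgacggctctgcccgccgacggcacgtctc
Cldn3 promoter: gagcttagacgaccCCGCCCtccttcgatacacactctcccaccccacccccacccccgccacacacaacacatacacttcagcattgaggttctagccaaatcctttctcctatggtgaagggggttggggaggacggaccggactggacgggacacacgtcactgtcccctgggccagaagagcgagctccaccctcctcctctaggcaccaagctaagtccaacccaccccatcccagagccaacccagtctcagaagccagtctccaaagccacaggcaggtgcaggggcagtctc
The letters were present in 35.7% of the 32851 promoters of the table. Of the 8 members that the table holds (Cldn23 was not matched), 6 had them in at least 1 listed promoter. The former figure counts promoters and the latter counts genes, which can have several promoters, so the figures cannot be compared. A match is a description of the letters, not a binding site.

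As FPKM is given per length, levels of different genes can be set side by side. Cldn7 was the most abundant member, with a mean of 743 FPKM over the 23 libraries (660 to 1058), followed by Cldn3 with 412 FPKM (352 to 661) and Cldn15 with 345 FPKM (227 to 437). Tjp3 had a mean of 122 FPKM, Cldn2 85.8, Ocln 33.3, Cldn23 20.8, Tjp1 19.7 and Cldn4 10.9. The order from Cldn7 down to Ocln and from Ocln to Cldn23 was the same in 23 of 23 libraries, whereas Cldn23 was above Tjp1 in only 12 of 23, so these neighbours could not be ranked. Tjp1 was above Cldn4 in 20 of 23 libraries, the exceptions being a library of Sa and libraries of A10-FMT in set 1. Of the other claudin genes on a list of 20, 15 were in the table, and only Cldn12, with a mean of 15.4 FPKM, and the claudin-like gene Cldnd1, with 28.2 FPKM, reached 1 FPKM. Cldn8 was next at 0.728 FPKM. The sealing claudins Cldn7 and Cldn3 thus had higher levels than the pore-forming Cldn15 and Cldn2 in each of the 23 libraries. Cldn4, described with the sealing claudins above, was below both pore-forming genes in each library, so level did not separate these classes.

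**Figure D1:**
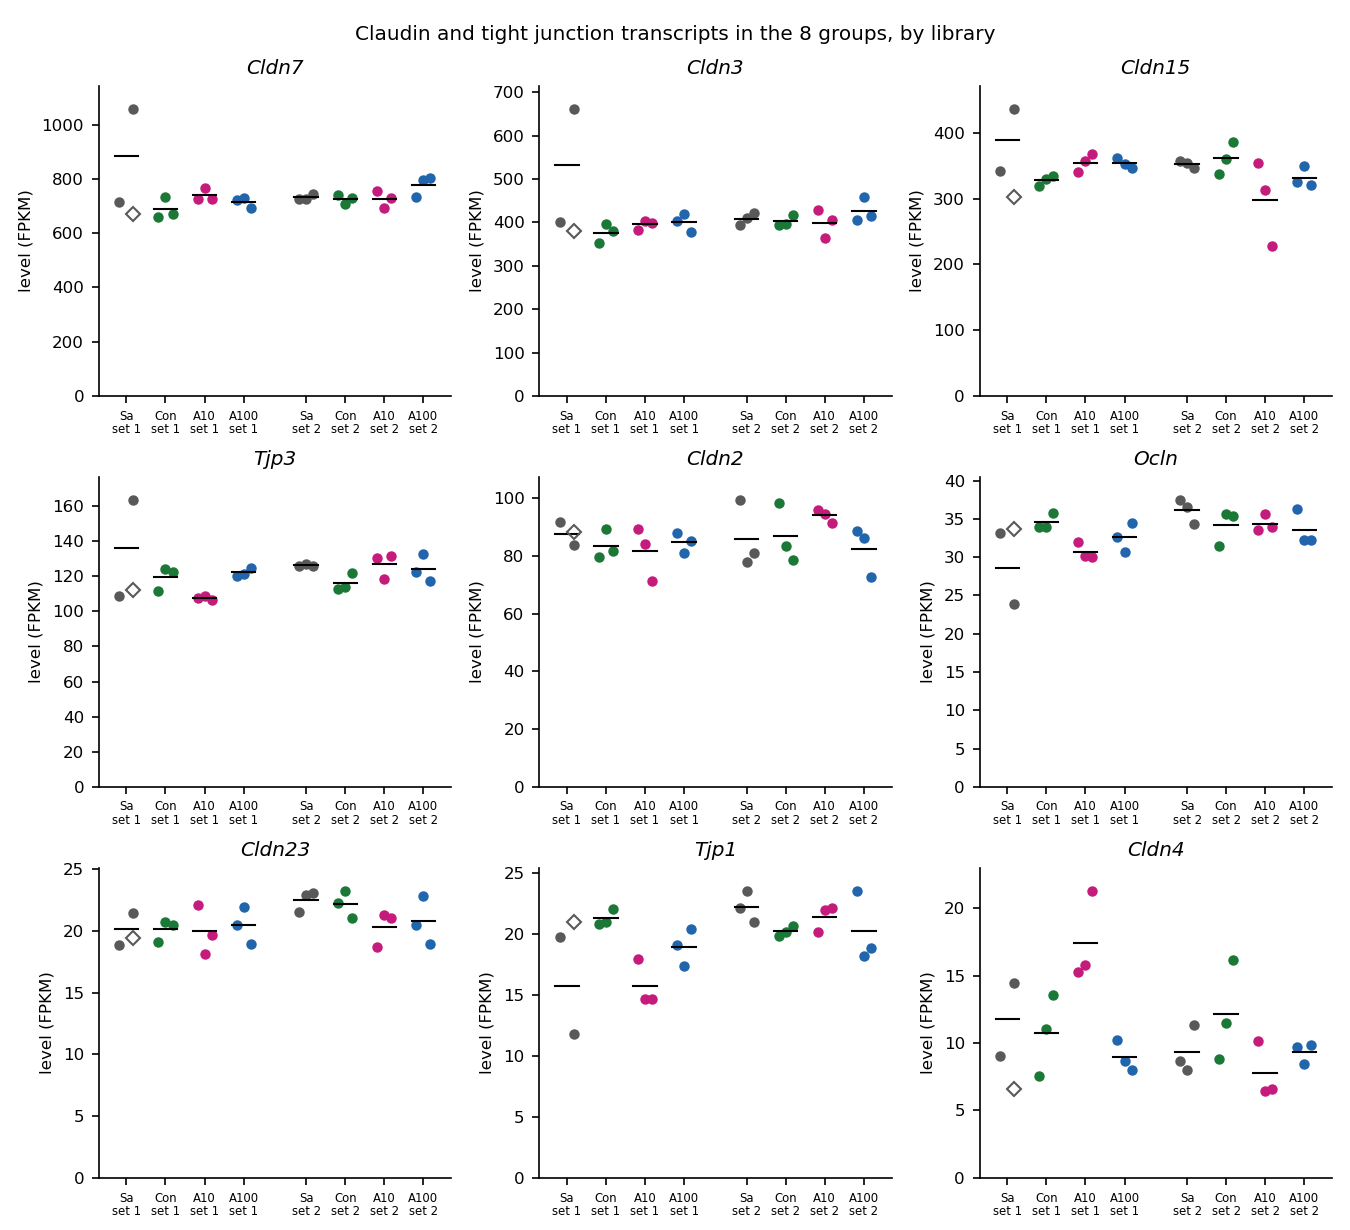
Level in FPKM (vertical axes, from 0) of the 9 members by treatment and set, with each filled point 1 library and each bar the group mean. The open diamond is the other column, which the description of Sa replicate 3 of set 1 names. Cldn4 is raised in the 3 A10-FMT libraries of set 1, and 1 Sa library of set 1 lies far from the rest for Cldn7, Cldn3, Tjp3, Ocln and Tjp1.

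Members differed in how much they varied. The coefficient of variation over the 23 libraries was 33.5% for Cldn4, against a median of 12.3% for all tested genes, and 93.7% of the tested genes varied less than Cldn4. It was 7.40% for Cldn23, 8.73% for Ocln, 8.75% for Cldn2, 9.86% for Tjp3, 10.3% for Cldn7, 10.5% for Cldn15, 14.2% for Cldn3 and 14.7% for Tjp1. Much of the spread of Cldn3 and Cldn7 lay in 1 Sa library of set 1, without which their coefficients were 5.598% and 4.67%, while that of Cldn4 was 34.0% without it. The ratio of the highest to the lowest group mean was 2.25 for Cldn4 and 1.12 to 1.41 for the other members.

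This Sa library has replicate number 3 in its title, but its description names another column of the table. The header of that column gives a different replicate number of Sa in set 1, which no sample title carries. The values of these columns differ, and by their headers they are separate libraries. The title's column was used, and every comparison with it was repeated with the description's column. Its values were skewed by GC content: over the 10527 tested genes whose transcript GC content was at hand, the deviation from the median of all libraries was larger for GC-rich genes (Spearman's rho = 0.690, over genes, which are not independent replicates), while rho was -0.221 to 0.220 in the other 22 libraries and -0.0867 in the description's column. The tested genes had a median GC content of 49.7%. In the title's column the GC-rich transcripts were high, with Cldn3 (62.7% GC) 0.71 above the median library on the log2(FPKM + 1) scale, Cldn7 (57.0%) 0.54, Cldn4 (56.8%) 0.51, Tjp3 (60.7%) 0.42 and Cldn15 (54.1%) 0.33 above it. Tjp1 (46.8% GC) was 0.72 below it and Ocln (42.0%) 0.49 below, whereas Cldn2 (48.8%) and Cldn23 (54.8%) were within 0.03 of it. In the description's column 8 of the 9 members lay within 0.20 of the median library, and Cldn4 was 0.51 below it.

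**Figure D2:**
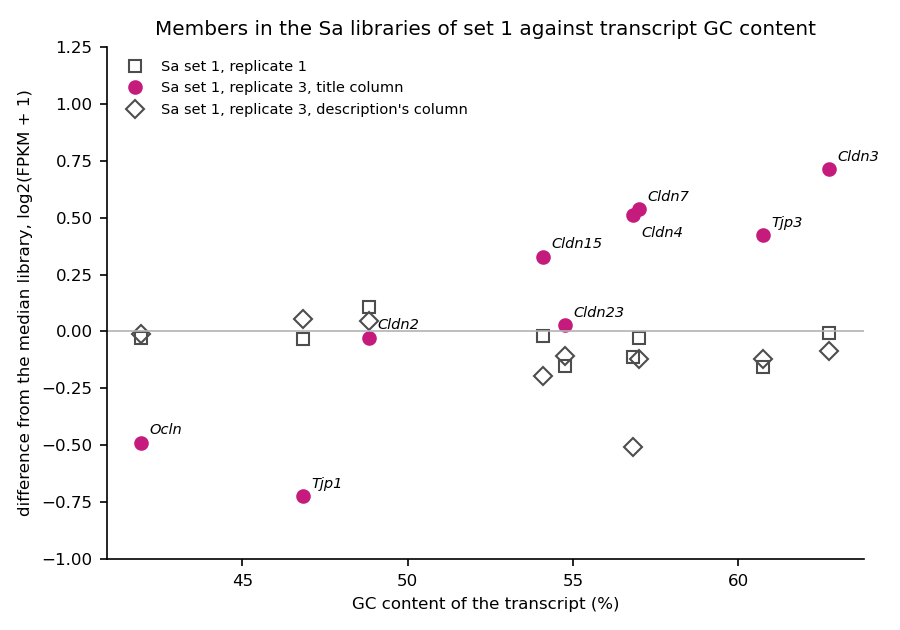
Difference of each member from the median of the 23 libraries in log2(FPKM + 1) (vertical axis) against the GC content of its transcript in % (horizontal axis). Points are Sa replicate 1 of set 1 and the columns that the title and the description of Sa replicate 3 of set 1 name. In the title's column Cldn3, Cldn7, Cldn4, Tjp3 and Cldn15 are high and Tjp1 and Ocln low, from 0.71 above to 0.72 below the median library.

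Cldn4 separated A10-FMT from the other groups of set 1. Its levels there were 15.2, 15.8 and 21.3 FPKM after A10-FMT, 7.56, 11.1 and 13.5 FPKM after Con-FMT, and 7.98, 8.70 and 10.2 FPKM after A100-FMT. Sa gave 9.03 and 14.5 FPKM, or 6.63 FPKM in the description's column in place of the latter. All 3 A10-FMT libraries were thus above every other library of set 1, the nearest being Sa at 14.5 FPKM. The share of all tested genes whose libraries separate in this way is not given, here or below. In set 2 the levels were 6.44, 6.63 and 10.2 FPKM after A10-FMT, 8.79, 11.5 and 16.2 after Con-FMT, 8.45, 9.70 and 9.85 after A100-FMT, and 8.01, 8.64 and 11.4 in Sa, and all groups overlapped except that 2 of the 3 A10-FMT libraries were the lowest of the set. In bulk tissue, fewer cells of a type and less RNA per cell cannot be told apart.

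The group means of Cldn4 in set 1 were 17.4 ± 3.33 FPKM after A10-FMT, 10.7 ± 3.0 after Con-FMT and 8.97 ± 1.14 after A100-FMT (SD, n = 3 each). From A10-FMT to A100-FMT Cldn4 fell by 0.88 on the log2(FPKM + 1) scale (standard error, SE, 0.23, 95% interval -1.36 to -0.40, adjusted p = 0.0329 from limma, all 3 libraries lower). From Con-FMT to A10-FMT it differed by 0.67 (SE 0.23, interval 0.19 to 1.15), which missed the threshold of 0.05 (adjusted p = 0.0511 from limma) with the title's column and passed it with the description's column (adjusted p = 0.0258). The call from A10-FMT to A100-FMT was lost when any of the 6 libraries of these groups was left out, with adjusted p from 0.0529 without A100-FMT replicate 1 to 0.158 without A100-FMT replicate 3, and differences of -0.97 to -0.74. The value in the opposite direction in set 2, -0.58 from Con-FMT to A10-FMT, was not called (SE 0.23, adjusted p = 0.305 from limma).

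The change of Cldn4 from Con-FMT to A10-FMT differed between the sets, as did that of 20.8% of all tested genes. Set 2 minus set 1 was -1.25 (SE 0.32, interval -1.93 to -0.57, adjusted p = 0.0120 from limma), against a median of 0.126 over all tested genes for this difference of differences. It ranged from -1.44 to -1.04 over the 35 alternative settings, including each library left out in turn, with adjusted p from 0.00204 to 0.0372. Within A10-FMT, Cldn4 was lower in set 2 than in set 1 by a difference of -1.09 (SE 0.23, adjusted p = 0.00203 from limma), with all 3 libraries of set 2 below all 3 of set 1 and adjusted p of at most 0.0149 in the 35 alternatives. Set and any batch in which the sets were handled cannot be told apart.

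**Figure D3:**
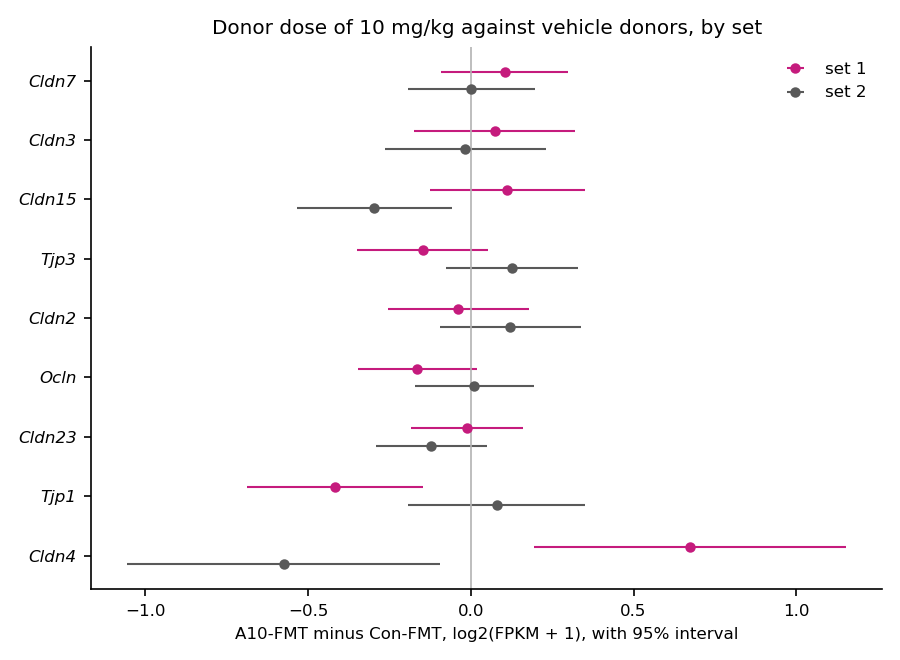
A10-FMT minus Con-FMT for each member in log2(FPKM + 1) (horizontal axis), with the 95% interval from limma, in set 1 and in set 2. Cldn4 lies at 0.67 in set 1 and at -0.58 in set 2, Tjp1 lies at -0.42 in set 1 and at 0.08 in set 2, and the intervals of the sealing claudins Cldn7 and Cldn3 include 0 in both sets.

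Tjp1 moved the other way from Cldn4 between Con-FMT and A10-FMT in set 1, but not between Con-FMT and A100-FMT, where both means were lower after A100-FMT. The levels of Tjp1 in set 1 were 20.9, 21.0 and 22.1 FPKM after Con-FMT, 14.67, 14.71 and 17.96 FPKM after A10-FMT and 17.4, 19.1 and 20.5 FPKM after A100-FMT, so both AOS donor groups lay below every Con-FMT library. Sa gave 11.8 and 19.8 FPKM, or 21.0 FPKM in the description's column in place of the former. In set 2 the levels were 19.9, 20.2 and 20.7 after Con-FMT, 20.2, 21.98 and 22.2 after A10-FMT, 18.3, 18.9 and 23.6 after A100-FMT, and 21.1, 22.2 and 23.6 in Sa.

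From Con-FMT to A10-FMT in set 1, Tjp1 fell by 0.42 (SE 0.13, 95% interval -0.69 to -0.15, adjusted p = 0.0339 from limma). The call was lost without any of the 3 Con-FMT libraries and without A10-FMT replicate 2 or 3, with adjusted p of 0.0743 to 0.121, and it had an adjusted p of 0.00191 with the description's column. When transcript GC content and length were adjusted for, it was -0.23 (adjusted p = 0.0289 from limma). Tjp1 after A10-FMT was higher in set 2 than in set 1 by 0.42 (SE 0.13, adjusted p = 0.0192 from limma), and this call was lost without A10-FMT replicate 2 or 3 of either set (adjusted p = 0.0608 to 0.0756 from limma) and with trimmed-mean scaling (adjusted p = 0.0580). The difference of differences was 0.50 and was not called (adjusted p = 0.0614 from limma), but was with the description's column (adjusted p = 0.00475).

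Markers of villus and crypt cells also differed between Con-FMT and A10-FMT in set 1. The villus list, 7 genes that are high toward the tip of the villus, had summed levels of 1410 to 1908 FPKM after A10-FMT in set 1, 803 to 1043 FPKM after Con-FMT and 464 to 793 FPKM after A10-FMT in set 2. Most of these sums was Apoa4, with 1298, 1604 and 1743 FPKM after A10-FMT and 736, 853 and 942 FPKM after Con-FMT in set 1. After A100-FMT in set 1 the villus sums were 1077 to 1292 FPKM, above those after Con-FMT. The mean of Cldn4 was lower there, at 8.97 against 10.7 FPKM after Con-FMT. From Con-FMT to A100-FMT in set 1, 0 of the 6 tested villus genes were called (0.406% of all tested genes). Of the 6 tested genes of the list, 4 rose and 1, Egfr, fell from Con-FMT to A10-FMT in set 1. In that comparison 16.7% of all tested genes were called. Ada, adenosine deaminase, had 32.0, 56.8 and 71.4 FPKM after A10-FMT and 13.8, 20.3 and 33.6 FPKM after Con-FMT, with 1 library of each overlapping, and rose by 1.22 (adjusted p = 0.0137 from limma). Apoa4, an apolipoprotein made by absorptive cells, rose by 0.87 (adjusted p = 0.00316), and the transcription factor gene Klf4 rose by 0.61 (adjusted p = 0.00259). For these genes the difference between the sets was called as for Cldn4 (-2.60, -1.84 and -1.12, adjusted p = 0.00084, 0.00019 and 0.000363 from limma).

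The crypt list had summed levels of 465 to 521 FPKM after A10-FMT and 647 to 708 FPKM after Con-FMT in set 1. Most of these sums was Olfm4, at 304 to 347 FPKM after A10-FMT and 431 to 478 FPKM after Con-FMT. From Con-FMT to A10-FMT, 5 of the 8 crypt genes fell and 0 rose, where 16.7% of all tested genes were called. The crypt gene Olfm4 fell by 0.45 (adjusted p = 0.0476 from limma), and the dividing-cell genes Top2a and Ccnb1 fell by 0.45 and by 0.29 (adjusted p = 0.0201 and 0.0386). No gene of either list was at 0 in all libraries of a group, and the part of either list in the values of Cldn4 and Tjp1 was not tested. The sums of other lists were low throughout, from 0.99 to 2.21 FPKM for 8 genes of Peyer's patches, 0.06 to 0.26 FPKM for endothelium, 0.81 to 2.09 FPKM for smooth muscle, 3.31 to 7.25 FPKM for pancreatic acinar cells and 3.10 to 15.6 FPKM for T and B cells. Those of the 10 epithelial genes ran from 7436 to 10480 FPKM.

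**Figure D4:**
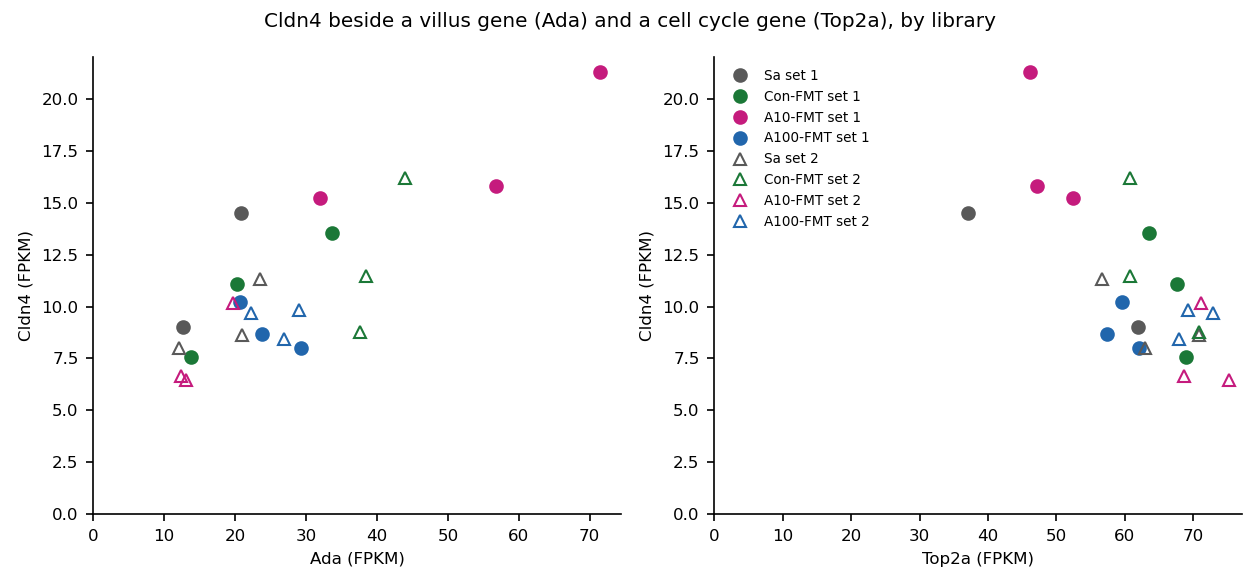
Cldn4 in FPKM (vertical axes) against the villus gene Ada and the cell cycle gene Top2a in FPKM (horizontal axes), with each point 1 of the 23 libraries, filled for set 1 and open for set 2. The 3 A10-FMT libraries of set 1, at 15.2 to 21.3 FPKM of Cldn4, and 1 Con-FMT library of set 2, at 16.2 FPKM, lie above the rest, the former with Ada at 32.0 to 71.4 FPKM and Top2a at 46.2 to 52.5 FPKM.

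The sums of segment markers also differed between these groups. The distal list summed to 2990 to 3305 FPKM after A10-FMT and 2297 to 2557 FPKM after Con-FMT in set 1. Of its 5 tested genes 2, Slc10a2 and Slc51b, rose, where 16.7% of all tested genes were called. Most of the distal sums was Muc13, Fabp6 and Guca2a, which were not called. Fabp6 had 923, 1055 and 1215 FPKM after A10-FMT and 593, 596 and 717 FPKM after Con-FMT. The proximal list summed to 220 to 239 FPKM after A10-FMT and 137 to 161 FPKM after Con-FMT, with 0 of 5 called. The median difference of these 5 genes was 0.007. Adh6a had 134.27, 137.92 and 150.15 FPKM after A10-FMT and 52.59, 77.6 and 79.95 FPKM after Con-FMT. Slc40a1 was also higher in each A10-FMT library than in each Con-FMT library. Gata4 was not, with 45.86, 50.35 and 50.73 FPKM after A10-FMT and 50.64, 50.75 and 60.65 FPKM after Con-FMT. The sums of both lists were higher after A10-FMT than after Con-FMT in set 1, without overlap of the libraries. The higher proximal sums were not shared by every gene of that list. The part of either list in the members' values was not tested.

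Ocln and Tjp3 had smaller differences between these groups of set 1. Ocln stood at 34.0, 34.0 and 35.7 FPKM after Con-FMT and at 30.02, 30.2 and 31.9 FPKM after A10-FMT, without overlap, a difference of -0.17 (SE 0.09, adjusted p = 0.204 from limma). Tjp3 stood at 111, 123 and 124 FPKM after Con-FMT and at 107, 107 and 109 FPKM after A10-FMT, a difference of -0.15 (SE 0.10, adjusted p = 0.309 from limma). Cldn15, one of the pore-forming claudin genes, was higher in all 3 A10-FMT libraries (341, 357 and 368 FPKM) than in the Con-FMT libraries (320, 329 and 335 FPKM), a difference of 0.11 (SE 0.11, adjusted p = 0.532 from limma). In set 2 Cldn15 had 227, 314 and 355 FPKM after A10-FMT and 337, 361 and 386 FPKM after Con-FMT (difference -0.30, adjusted p = 0.287 from limma), and the low value of 227 FPKM belonged to 1 library, A10-FMT replicate 3. With the description's column, Ocln and Tjp3 passed the threshold in set 1 (adjusted p = 0.0330 and 0.0323 from limma), at the same differences, as only the shared estimate of the spread changes for these groups.

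Cldn3, Cldn7, Cldn2 and Cldn23 showed no called difference between FMT groups in either set. From Con-FMT to A10-FMT in set 1 the differences were 0.07 for Cldn3 (95% interval -0.17 to 0.32), 0.10 for Cldn7 (-0.09 to 0.30), -0.04 for Cldn2 (-0.26 to 0.18) and -0.01 for Cldn23 (-0.18 to 0.16). These intervals leave room for differences of up to 0.32 on the log2 scale in Cldn3, which encodes one of the abundant sealing claudins.

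In count, 1 of 9 members (Tjp1) was called from Con-FMT to A10-FMT in set 1, where 16.7% of all tested genes were called, 0 of 9 from Con-FMT to A100-FMT (0.406% of all genes) and 1 of 9 (Cldn4) from A10-FMT to A100-FMT (5.66%). An unadjusted p under 0.05 was reached by 2, 0 and 1 members. The shares of members called were near those of all genes. With the description's column 4 of 9, 0 of 9 and 3 of 9 members were called, against 32.8%, 1.89% and 20.2% of all genes: Cldn4, Ocln, Tjp1 and Tjp3 from Con-FMT to A10-FMT, and Cldn4, Tjp1 and Tjp3 from A10-FMT to A100-FMT.

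In set 2, limma called 0 of 9 members between the FMT groups, where 0.379% of all tested genes were called from Con-FMT to A10-FMT, 0.0% from Con-FMT to A100-FMT and 0.00882% from A10-FMT to A100-FMT. There 2, 0 and 0 members had an unadjusted p under 0.05, Cldn4 and Cldn15 from Con-FMT to A10-FMT. Averaged over both sets, 0 of 9 members were called between FMT groups (0.0%, 0.123% and 0.132% of all genes in the same order), and 0, 0 and 0 had an unadjusted p under 0.05.

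Each FMT group was then compared with Sa, to ask whether the transplant itself was accompanied by a change in these transcripts. In set 1, 8 of the 27 pairs of member and comparison were called with the title's column: 4 of 9 members after Con-FMT (26.9% of all tested genes), 2 of 9 after A10-FMT (32.0%) and 2 of 9 after A100-FMT (35.2%). After Con-FMT, Cldn3 fell by 0.46 (SE 0.13, adjusted p = 0.0276 from limma), Cldn7 fell by 0.34 (adjusted p = 0.0304), and Ocln and Tjp1 rose by 0.29 and 0.45 (adjusted p = 0.0405 and 0.0337). After A10-FMT, Cldn3 and Tjp3 fell by 0.38 and by 0.31 (adjusted p = 0.0346 and 0.0365), and after A100-FMT, Cldn3 and Cldn7 fell by 0.37 and by 0.28 (adjusted p = 0.0391 and 0.0429). The 3 comparisons share the Sa libraries.

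None of these 8 calls was present without Sa replicate 3, when 0 of 27 pairs were called, or with the description's column. In the latter the differences of Cldn3 were -0.06 after Con-FMT, 0.02 after A10-FMT and 0.03 after A100-FMT, and those of Cldn7 were -0.01, 0.09 and 0.05. Without Sa replicate 1, when replicate 3 stood alone for Sa, 16 of 27 pairs were called. Leaving out either library leaves 1 for Sa in set 1, which is then assumed to vary like the libraries of the other groups. The levels show the same dependence: Cldn3 had 402 and 661 FPKM in Sa, against 352, 380 and 397 FPKM after Con-FMT, and 380 FPKM in the description's column. Cldn7 had 714 and 1058 FPKM in Sa, against 660, 671 and 733 FPKM after Con-FMT, and 670 FPKM in the description's column. Tjp3 likewise had 109 and 163 FPKM in Sa, with 112 FPKM in the description's column, and Ocln 23.9 and 33.2 FPKM, with 33.6 FPKM in the description's column.

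The description's column gave other calls against Sa. After A10-FMT, Cldn4 rose by 1.06 (SE 0.24, 95% interval 0.55 to 1.57, adjusted p = 0.00362 from limma), and Tjp1 fell by 0.36 (SE 0.10, interval -0.56 to -0.15, adjusted p = 0.00916), so that 2 of 9 members were called, against 33.8% of all genes. After Con-FMT and A100-FMT 0 of 9 members were called (0.397% and 8.51% of all genes), and 0 and 1 had an unadjusted p under 0.05. With the title's column the same difference of Cldn4 was 0.55 (adjusted p = 0.104) and that of Tjp1 0.03 (adjusted p = 0.874).

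In set 2, where Sa had 3 libraries, limma called 0 of 9 members after Con-FMT (0.0353% of all tested genes), 0 of 9 after A10-FMT (0.423%) and 0 of 9 after A100-FMT (0.0353%), and 0, 1 and 0 had an unadjusted p under 0.05. The description's column enters here only through the shared estimate of the spread. It gave 0 of 9 after A10-FMT (3.10% of all genes) and 0 of 9 after A100-FMT (4.94%). With the title's column the 27 differences lay between -0.27 (Cldn15 after A10-FMT, 95% interval -0.50 to -0.03) and 0.32 (Cldn4 after Con-FMT, interval -0.16 to 0.80). Cldn23, whose levels were 21.5, 22.9 and 23.1 FPKM in Sa and 18.7, 21.04 and 21.3 FPKM after A10-FMT, differed by -0.14 (adjusted p = 0.456 from limma). Averaged over both sets, 0 of 9 members were called in each comparison (0.750%, 0.132% and 0.891% of all genes), and 2, 3 and 0 had an unadjusted p under 0.05. Without Sa replicate 1 of set 1, 15 of 27 pairs were called over both sets.

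**Figure D5:**
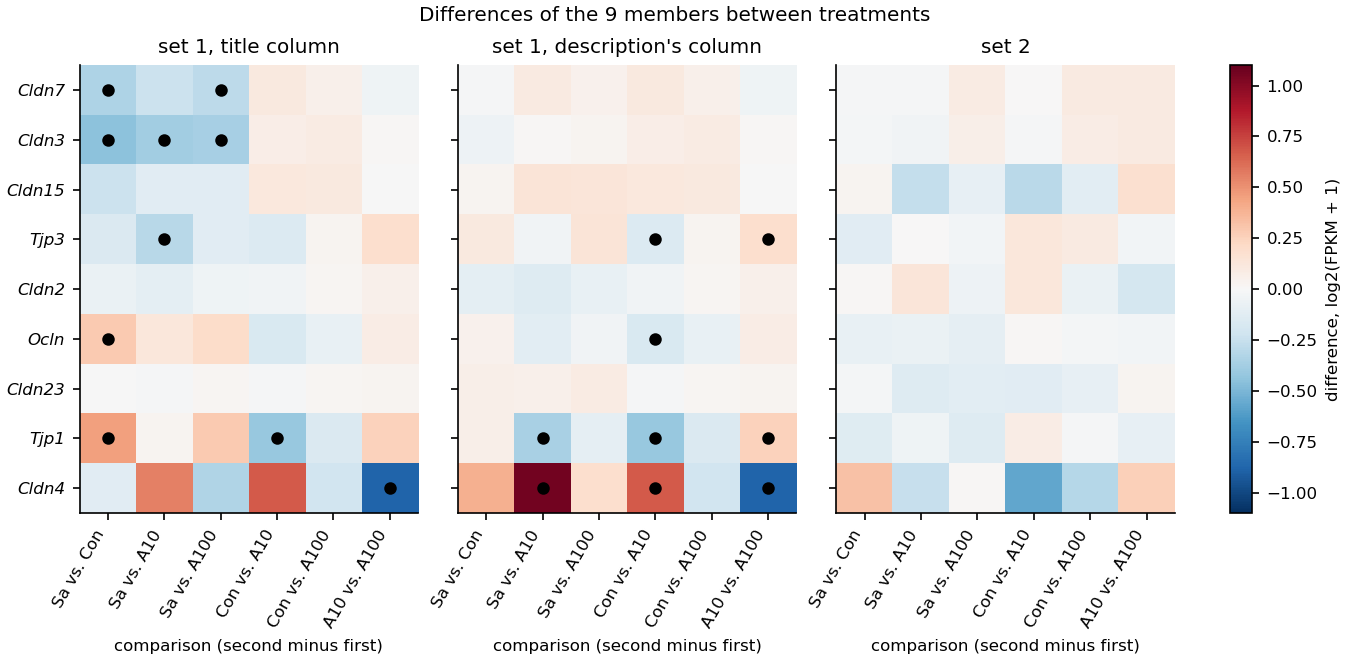
Difference of each member (rows) between treatments (columns, the second treatment minus the first) in log2(FPKM + 1), as colour, in set 1 with the title's column, in set 1 with the description's column and in set 2. Black dots mark adjusted p under 0.05 from limma, with 8 among the Sa comparisons of set 1 in the first panel, 2 in the middle panel and 0 in set 2.

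Sets were also compared within each treatment. In Sa 2 of 9 members were higher in set 2 (38.1% of all genes called), Ocln by 0.35 and Tjp1 by 0.51 (SE 0.10 and 0.14, adjusted p = 0.0150 and 0.0152 from limma), and both calls were lost without Sa replicate 3 of set 1 (differences 0.12 and 0.16, adjusted p = 0.572 and 0.602). In A10-FMT 2 of 9 were called, Cldn4 and Tjp1 as above (30.4% of all genes), and 5 of 9 with the description's column (47.7%). In Con-FMT and A100-FMT 0 of 9 were called (0.00882% and 0.0%), and 0 and 0 had an unadjusted p under 0.05. The tests of the difference between the sets called 0, 0 and 0 of 9 members for Con-FMT, A10-FMT and A100-FMT against Sa (0.00882%, 28.4% and 26.8% of all genes), with 4, 2 and 4 at an unadjusted p under 0.05. They called 1, 0 and 0 of 9 from Con-FMT to A10-FMT, from Con-FMT to A100-FMT and from A10-FMT to A100-FMT (20.8%, 0.0% and 3.50%), with 3, 0 and 1 at an unadjusted p under 0.05. With the description's column the counts for A10-FMT against Sa, Con-FMT to A10-FMT and A10-FMT to A100-FMT were 1, 4 and 1 of 9 (36.2%, 37.1% and 12.6%).

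The other genes of the tight junction were taken from a list of 56, of which 51 were in the table and 29 were tested. From Con-FMT to A10-FMT in set 1, 2 of the 29 rose and 5 fell, where 16.7% of all tested genes were called, with a median difference of -0.02 against -0.08 over all genes. The risers were Igsf5 (JAM4), an adhesion molecule of the junction, by 0.25 (adjusted p = 0.0208 from limma), and Crb3, the apical polarity protein Crumbs 3, by 0.29 (adjusted p = 0.0110). The polarity genes Pard3 and Prkci, an atypical protein kinase C that works with Pard3, fell by 0.25 and by 0.35 (adjusted p = 0.0448 and 0.0189), and Amot, a scaffold protein, fell by 0.42 (adjusted p = 0.0108). Ybx3, whose protein binds ZO-1, fell by 0.25 (adjusted p = 0.00564), and Cldn12 fell by 0.24 (adjusted p = 0.0329).

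By library, Crb3 had 80.9, 91.9 and 93.0 FPKM after A10-FMT and 70.3, 70.5 and 75.2 FPKM after Con-FMT, and Ybx3 had 180, 188 and 194 FPKM against 212, 228 and 230 FPKM. From A10-FMT to A100-FMT Crb3 was the 1 gene of the 29 called, and it fell by 0.29 (adjusted p = 0.0295 from limma). From Con-FMT to A100-FMT 0 were called, and in set 2 limma with the title's column called 0 of 29 in each of the 6 comparisons. With the description's column 2 rose and 8 fell from Con-FMT to A10-FMT in set 1 (32.8% of all genes called), and 4 rose and 1 fell from A10-FMT to A100-FMT (20.2%). In set 2 that column gave 1 of 29 lower after A10-FMT than in Sa, Arhgef2 (3.10% of all genes called), and 5 lower after A100-FMT, Cldn12, Marveld2, F11r, Cxadr and Arhgef2 (4.94%). The 3 most abundant genes of the membrane list were Lsr of the tricellular junction (172 FPKM), Crb3 (74.7 FPKM) and F11r, the junctional adhesion molecule A (71.0 FPKM). Of the scaffold list, Ybx3 had a mean of 215 FPKM and Llgl2 52.0 FPKM.

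Against Sa in set 1, 7 of the 29 rose and 1 fell after Con-FMT, 4 rose and 4 fell after A10-FMT, and 6 rose and 2 fell after A100-FMT with the title's column. The 8 of 29 called in each were near or below the share of all tested genes called, which was 26.9%, 32.0% and 35.2%. Mpp5, the scaffold protein Pals1, rose in all of these, by 0.79, 0.92 and 0.86 (adjusted p = 0.0266, 0.00581 and 0.0124 from limma). Its level was 10.65 FPKM in Sa replicate 1, 3.5 FPKM in Sa replicate 3 and 10.36 FPKM in the description's column. After Con-FMT it was 11.02, 11.22 and 12.41 FPKM, and after A10-FMT 11.98, 12.7 and 13.6 FPKM. Cgn, which encodes cingulin, rose after Con-FMT and A100-FMT by 0.21 and 0.28 (adjusted p = 0.0265 and 0.00600), as did Marveld2, which encodes tricellulin, by 0.18 in each (adjusted p = 0.0389 and 0.0330). Igsf5 rose after A10-FMT and A100-FMT by 0.34 and 0.24 (adjusted p = 0.00492 and 0.0281), Lsr fell by 0.25 and by 0.28 (adjusted p = 0.0371 and 0.0257), and Ybx3 fell by 0.31 and by 0.17 (adjusted p = 0.00231 and 0.0464). Lsr had 169 FPKM in Sa replicate 1, 235 FPKM in Sa replicate 3 and 165 FPKM in the description's column. After A10-FMT it had 165, 167 and 168 FPKM.

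Genes called in 1 or 2 of these comparisons included, after Con-FMT, Magi3, Prkci, Amot and Pard3, which rose by 0.83, 0.36, 0.33 and 0.25 (adjusted p = 0.0286, 0.0283, 0.0428 and 0.0497 from limma), and Pard6a, which fell by 0.35 (adjusted p = 0.0496). Magi3 had 6.41 FPKM in Sa replicate 1, 2.12 FPKM in Sa replicate 3 and 6.53 FPKM in the description's column. After A10-FMT, Arhgef2 and Patj rose by 0.36 and 0.20 (adjusted p = 0.00553 and 0.0270), and Pard6a and Sympk fell by 0.41 and by 0.29 (adjusted p = 0.0225 and 0.0220). After A100-FMT, Magi1 and Cxadr rose by 0.37 and 0.22 (adjusted p = 0.0220 and 0.0361). Without Sa replicate 3, 2 of these pairs of gene and comparison were called in place of 24, and without Sa replicate 1 the count was 56. With the description's column 0 were called after Con-FMT, 7 rose and 5 fell after A10-FMT, and Cgn rose and Ybx3 fell after A100-FMT.

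The genes most like each member were found by Pearson's r of log2(FPKM + 1) over the 23 libraries, as a description, since the libraries share groups and the GC trend of 1 of them. Cldn4 was closest to Gprc5a (r = 0.893), Plin3 (0.857) and Igsf23 (0.840), and r was 0.947, 0.853 and 0.830 without Sa replicate 3. Tjp1 was closest to Nr2c2 (0.967), Arhgap32 (0.966) and Fam120a (0.964), and r was 0.937 to 0.944 without that library. Ocln was closest to Ncoa2 (0.952), Nrip1 (0.948) and Mbd5 (0.941), which fell to 0.882 to 0.897.

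For Cldn3 the closest gene was another member, Cldn7 (r = 0.956), ahead of Tle5 (0.935) and Gfus (0.931), and without Sa replicate 3 these were 0.815, 0.737 and 0.622. Cldn7 was closest to Cldn3, Spint2 (0.950) and Eif6 (0.949), which encode a protease inhibitor and a translation factor. Tjp3 was closest to Dgkz (0.915), Inava (0.905) and Mknk2 (0.892), Cldn15 to Znhit1 (0.837), Fis1 (0.818) and Rnf167 (0.770), Cldn2 to Tmed10 (0.725), Tmx2 (0.722) and Abcc1 (0.708), and Cldn23 to Cebpd (0.629), Tbc1d9b (0.612) and Xylt2 (0.609).

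Between members, Ocln and Tjp1 were alike with and without that library (r = 0.935 and 0.890), as were Cldn3 and Cldn7 (0.956 and 0.815). Other relations turned with it. Tjp1 and Tjp3, both ZO scaffolds, had r = -0.156 over 23 libraries and 0.565 over the other 22, and Ocln and Tjp3 had -0.309 and 0.480. The neighbours Cldn3 and Cldn4 had r = 0.267 and 0.129, and Cldn4 and Tjp1 had -0.588 and -0.590.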

How the data were processed

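RNA of the small intestine was sequenced on an Illumina HiSeq. The authors turned read numbers into length-scaled values and deposited 1 table of FPKM values, the labels name the mm10 build, and the aligner is not given in the sources used here. The table's 24 columns include both columns that the title and the description of Sa replicate 3 in set 1 name, and they were never used together.

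Values were taken as log2(FPKM + 1), genes with a mean under 1 FPKM were left out, and all 8 groups were fitted together with limma 3.58.1 (trended variance) in R 4.3.3, which was tested on simulated data. The p-values of all 11337 genes were adjusted by Benjamini-Hochberg, and a gene was called below 0.05. A difference is on the log2(FPKM + 1) scale, which understates that of low genes. The labels do not say that libraries came from separate mice, so p-values measure the spread between libraries, which may be technical. Read numbers are unknown apart from the approximate relative depth, so no counting intervals are given.

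The members and lists were chosen with earlier results of these data known. The text names the members, the 3 most correlated genes of each, the called and the 3 most abundant genes of each tight junction list, and the 3 most abundant of each marker list, except 1 gene that is not reported here. The alternatives were 23 that leave out a library and 12 others.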

Additional observations from a re-analysis of the deposited data

Results flagged for a closer look

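Cldn4 moved in opposite directions in the 2 sets from Con-FMT to A10-FMT, and the test of the difference between these changes passed the threshold. The same test passed it for 20.8% of all tested genes. Set 2 minus set 1 was -1.25 (adjusted p = 0.0120 from limma, over all tested genes), with a difference of 0.67 in set 1 and -0.58 in set 2, neither of which passed the threshold on its own.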

How the results depend on the processing

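The number of pairs of member and comparison called depended on the setting in set 1. Against Sa in set 1, 8 pairs were called, and the count was 2 with the description's column, 1 with all genes above 0, 3 with quantile normalization, 5 with trimmed-mean scaling, 1 with GC and length adjustment, 0 with the groups compared alone and 0 with array quality weights. Between FMT groups in set 1, 2 were called, and the count was 7 with the description's column, 0 with all genes above 0, 4 with GC and length adjustment, 1 with groups compared alone and 4 with array quality weights. In set 2 none was called, but array quality weights called 1 against Sa (Cldn15) and 2 between FMT groups (Cldn4 and Cldn15). Of the differences between sets, 1 was called, against 6 with the description's column, 2 with a mean of at least 5 FPKM, 2 with quantile normalization, 5 with epithelial marker scaling, 7 with GC and length adjustment, 4 with groups compared alone and 6 with array quality weights. Between the sets within a treatment, 4 were called, against 7 with epithelial marker scaling. For the other tight junction genes, 24 pairs were called against Sa in set 1, against 14 with the description's column, 0 with groups compared alone and 0 with array quality weights, and 8 between FMT groups in set 1, against 15 with the description's column and 13 with GC and length adjustment. The cause of these changes was not tested.

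Leaving out 1 library at a time gave 0 to 16 calls against Sa in set 1, 0 to 0 in set 2 and 0 to 15 over both sets. It gave 0 to 7 calls between FMT groups in set 1, 0 to 0 in set 2 and 0 to 0 over both sets, 1 to 21 for the differences between sets and 3 to 10 between the sets within a treatment. The other tight junction genes gave 2 to 56 calls against Sa and 3 to 17 between FMT groups. The highest counts were without Sa replicate 1 of set 1. Without Sa replicate 3 there were 0 calls against Sa in set 1, 7 between FMT groups and 6 for the differences between sets. Against Sa in set 1 there were 4 calls without Con-FMT replicate 1 or 3 of set 1 and 5 without A10-FMT replicate 1 or 3 of set 1.

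Replicate numbers did not pair the libraries: over 33 same-numbered pairs r ranged from -0.352 to 0.319 (median 0.00187, with 10 above 0.1), against a median of -0.00366 over 66 other pairs. The replicate block gave 8 calls against Sa and 3 between FMT groups in set 1, and 2 for the differences between sets. The block together with the description's column, chosen after seeing the data, gave 2, 6 and 5, and 15 and 14 for the other tight junction genes.

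Of the called differences, those that turned were, with GC and length adjustment, Ocln from Sa to Con-FMT in set 1 (-0.079) and between sets in Sa (-0.048), and, with the description's column, Cldn3 from Sa to A10-FMT (0.016) and to A100-FMT (0.031, or 0.001 with the replicate block) and Cldn7 from Sa to A100-FMT (0.046, or 0.017 with the block). Tjp1 from Sa to A10-FMT in set 1, which was not called at 0.03, turned to -0.36 and was called with the description's column (adjusted p = 0.00916 from limma). The Cldn4 difference between sets from Con-FMT to A10-FMT and that within A10-FMT kept direction and call in all 35 alternatives. Cldn4 from Con-FMT to A10-FMT in set 1 passed the threshold in 15 of the 35 (0.46 to 0.85, adjusted p 0.0258 to 0.239 from limma), and the calls of Tjp1 from Con-FMT to A10-FMT and of Cldn4 from A10-FMT to A100-FMT in set 1 were each lost in 8. For Tjp1 these included all genes above 0 (adjusted p = 0.0579), trimmed-mean scaling (0.0611) and epithelial marker scaling (0.0572). Epithelial marker scaling moved the median of all genes from Sa to Con-FMT in set 1 by 0.113, and GC and length adjustment moved that of the difference between sets from Con-FMT to A10-FMT by -0.121 and that between sets in A10-FMT by -0.115.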
